A study of Mus musculus with 4 samples.

Results

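The genes described here are 10 mouse genes that bind, sense or move zinc, chosen from 19938 named genes on the arrays: the metallothioneins Mt1, Mt2, Mt3 and Mt4, the transcription factor gene Mtf1, the zinc exporter genes Slc30a1 and Slc30a4, and the zinc importer genes Slc39a6, Slc39a10 and Slc39a14. Each gene was represented by its brightest probe set, and all 10 have a single probe set. The genes were picked with the values of the comparison below already known, Mt2 among them for its low values in the Ctcfl arrays. Their differences between the groups are therefore given as descriptions without a test.

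RNA came from NIH3T3 cells, an established mouse fibroblast line, in the form of a stable clone called p19 that carried pBI-EGFP-FLAG-mCtcfl and pTA-N. Both groups share this clone, in which withdrawal of doxycycline switches on FLAG-tagged mouse Ctcfl (Tet-Off). The 2 control arrays hold RNA of cells kept in 2 µg/ml doxycycline, and the 2 Ctcfl arrays hold RNA of cells grown for 48 h without it. CTCFL, also called BORIS, is the germ-line relative of the DNA-binding protein CTCF. Doxycycline belongs to the tetracyclines, which bind divalent metal ions, and it was present in the control medium only. Differences between the groups from the drug, from Ctcfl and from EGFP, which the plasmid name also holds, cannot be told apart. All cells derive from 1 clone. Nothing in the labels tells if the replicates came from different cultures, and p-values here measure the spread between 4 arrays, part or all of which can be technical.

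Metallothioneins are small, cysteine-rich proteins that hold zinc, copper and cadmium ions in thiolate clusters. When free zinc in the cell goes up, the zinc finger factor MTF-1 binds metal response elements in the promoters of Mt1, Mt2 and the exporter gene Slc30a1 and activates them. Zinc leaves the cytosol through transporters of the Slc30 (ZnT) family and enters it through those of the Slc39 (ZIP) family. Mt1 and Mt2 are expressed in most tissues and also respond to glucocorticoids, oxidative stress and cytokines of the interleukin 6 family, whereas Mt3 is known from the brain and Mt4 from stratified epithelia.

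The metallothionein genes lie side by side on chromosome 8, in the order Mt4, Mt3, Mt2, Mt1. Their promoters are shown because these adjacent genes differed in the size of their change. The sequences are from RefSeq (GRCm38.p6, plus strand, 5′ to 3′) and run from 250 bases before the transcript start to 30 bases after it. They span chr8:94178839-94179118 (Mt1), chr8:94172368-94172647 (Mt2), chr8:94152357-94152636 (Mt3) and chr8:94136954-94137233 (Mt4). Capitals mark matches to the core of the metal response element, TGCACNC or TGCGCNC on either strand.
Mt1: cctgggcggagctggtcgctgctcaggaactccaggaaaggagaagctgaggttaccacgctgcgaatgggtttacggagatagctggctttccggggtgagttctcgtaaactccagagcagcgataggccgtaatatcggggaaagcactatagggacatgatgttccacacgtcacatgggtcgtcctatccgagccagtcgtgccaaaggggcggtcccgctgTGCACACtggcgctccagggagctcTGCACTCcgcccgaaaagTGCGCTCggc
Mt2: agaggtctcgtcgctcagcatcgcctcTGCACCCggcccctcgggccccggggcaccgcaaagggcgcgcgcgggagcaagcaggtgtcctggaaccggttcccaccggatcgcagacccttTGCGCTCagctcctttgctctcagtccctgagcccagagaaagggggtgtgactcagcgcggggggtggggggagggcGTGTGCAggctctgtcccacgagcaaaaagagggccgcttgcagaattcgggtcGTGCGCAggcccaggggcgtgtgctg
Mt3: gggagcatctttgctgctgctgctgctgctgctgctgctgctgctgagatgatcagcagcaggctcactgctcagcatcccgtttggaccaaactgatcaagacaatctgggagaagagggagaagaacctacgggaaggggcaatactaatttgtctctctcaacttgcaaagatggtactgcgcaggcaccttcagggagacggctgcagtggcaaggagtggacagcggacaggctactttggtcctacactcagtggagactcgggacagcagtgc
Mt4: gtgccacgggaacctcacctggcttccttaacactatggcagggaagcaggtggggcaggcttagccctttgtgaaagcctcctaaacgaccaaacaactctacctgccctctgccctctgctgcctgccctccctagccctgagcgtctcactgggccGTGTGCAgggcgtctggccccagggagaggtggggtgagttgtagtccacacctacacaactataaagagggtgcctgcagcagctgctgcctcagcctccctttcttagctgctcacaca

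In the 300-base windows that the table holds for each promoter (250 before and 50 after the start), Mt2 had 4 such matches and Mt1 had 3. Those of Mt1 start at positions -23, 3 and 21, around the RefSeq start. Matches outside the window, or near any other Mt1 start, were not counted, so these numbers do not compare whole promoters. Mt3 and Mt4 had 1 match each, and that of Mt3 starts 28 bases into the transcript, so it runs past the printed part. Slc30a4 had 3 matches and Slc30a1 had 2, while Mtf1 and both windows of Slc39a10 had 0. Of all 32851 promoter windows of that length, 25.7% held at least 1 match, 1.97% held at least 3 and 0.517% held at least 4. Promoter windows were found for 8 of the 10 genes. Slc39a6 and Slc39a14 were not matched.

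The core of the antioxidant response element, TGACNNNGC on either strand, was found once in Mt2, at position -79 from the start, and once in Slc30a1, at position -82. It was found in 12.4% of all windows. The motifs do not overlap each other in the Mt2 window. These matches describe letters in a window, and binding was not measured here.

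**Figure D1:**
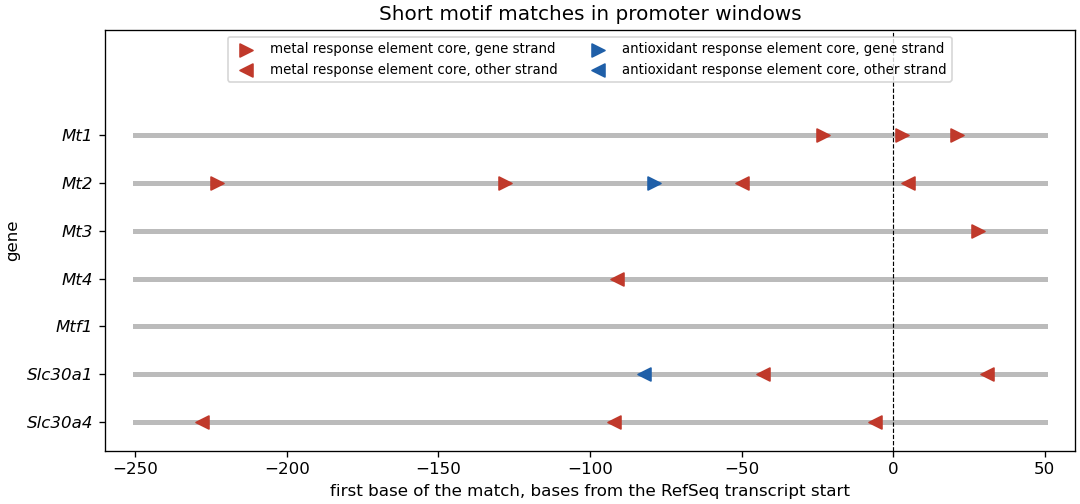
Matches to short motifs in the 300-base RefSeq promoter windows of 7 genes, with the distance in bases from the transcript start on the x axis and 1 gene per row. Triangles mark the first base of each match and point along the strand that carries it (red, metal response element core; blue, antioxidant response element core). Mt2 has 4 red marks and 1 blue mark, Mt1 has 3 red marks and Mtf1 has none.

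The array values are log2 RMA values, which means that 1 unit is a factor of 2. As a check of the labels, Ctcfl itself rose from 7.74 ± 0.04 (SD, n = 2) to 10.36 ± 0.01 (SD, n = 2), with an adjusted p of 5.38e-04 by limma. Its control values already lay above the upper quartile of each array (7.40 to 7.43), and the source of this signal was not tested. The comparison is thus of more against less Ctcfl signal. The fibroblast markers fixed for this work had medians of 10.07 to 10.13 on the 4 arrays, led by Col1a2, while Lum had a mean of only 2.90. Leukocyte, endothelial, keratinocyte, neuron and astrocyte, hepatocyte, adipocyte and skeletal muscle markers had medians of 4.05 to 5.40, against a median of 5.20 to 5.24 for all 35511 probe sets on each array. None of the markers of any list passed the adjusted threshold by limma. Among the 10 fibroblast markers, the mean was lower with Ctcfl for 8 and the groups did not overlap for 6 of these (20.6% of all genes were lower without overlap), and Col3a1, Pdgfra and Pdgfrb had an unadjusted p under 0.05, where 10.7% of all genes did. Pdgfrb was lowest (log2 change -0.56), and the part of these differences in the results below was not tested. In bulk RNA, fewer cells with a transcript and less transcript per cell cannot be told apart.

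Mt2 had the lowest change of the 10 genes and Mt1 the next. Mt2 read 9.51 and 9.31 on the control arrays and 8.54 and 8.31 on the Ctcfl arrays. Both Ctcfl arrays lie below both control arrays, and the gap between the groups is several times the gap between replicates. The mean went from 9.41 ± 0.14 to 8.43 ± 0.16 (SD, n = 2 per group), a log2 change of -0.98 (SE 0.12) or 1.98-fold less RNA in the Ctcfl arrays. Among all 19938 genes this change ranked 5 from the lowest.

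Mt1, the near neighbour and closest relative of Mt2, read 10.37 and 10.35 on the control arrays and 10.13 and 10.10 on the Ctcfl arrays. The groups again do not overlap, and replicates lie much closer together than the groups do. The log2 change was -0.24 (SE 0.08), or 1.19-fold lower, and it ranked 1061 from the lowest. The transcripts are alike in sequence, and whether the Mt1 and Mt2 probe sets cross-hybridise was not tested.

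The 2 genes did not shift by the same amount. The log2 ratio of the Mt2 to the Mt1 probe set was -0.86 and -1.04 on the control arrays and -1.59 and -1.79 on the Ctcfl arrays. Its absolute size has no meaning, since probe sets differ in brightness, but it was lower on both Ctcfl arrays. The mean ratio differed by -0.74 between the groups, from -0.95 ± 0.13 to -1.69 ± 0.14 (SD, n = 2 per group). Mt2 was chosen for its low values in the Ctcfl arrays, so a lower ratio there follows in part from that choice. It was not tested.

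**Figure D2:**
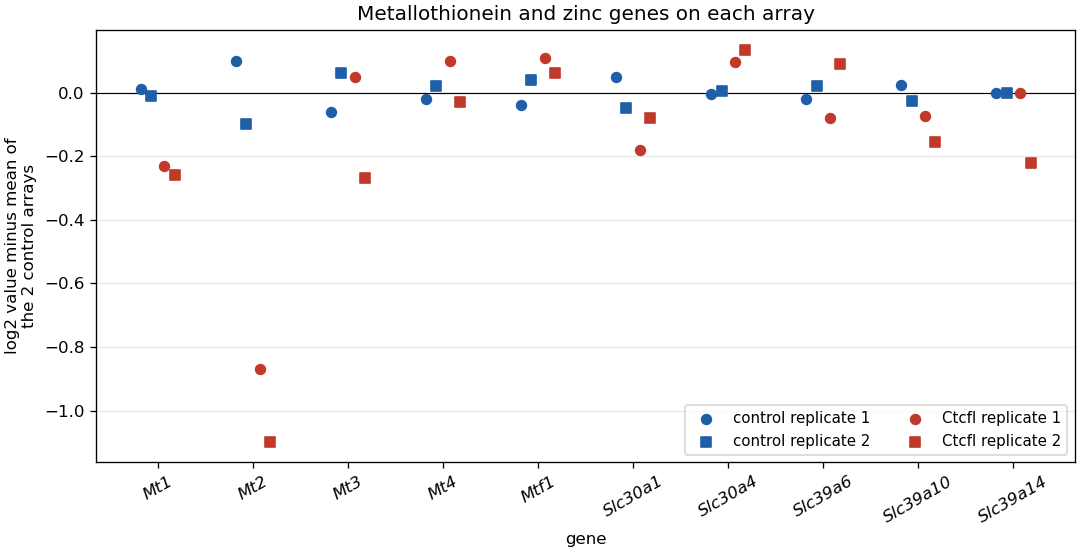
Values of the 10 genes on the 4 arrays, each as the log2 value minus the gene's mean over the 2 control arrays (y axis), by gene (x axis). Blue points are control arrays and red points Ctcfl arrays, with circles for replicate 1 and squares for replicate 2. Both red Mt2 points lie lower than every other point, those of Mt1 lie below both blue points by a smaller distance, and the other genes stay within 0.3 of 0.

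Mt3 and Mt4 did not separate the groups. Mt3 read 6.11 and 6.23 in the controls and 6.22 and 5.90 in the Ctcfl arrays (log2 change -0.11, SE 0.13), where a single Ctcfl array was low. Mt4 read 5.37 and 5.41 in the controls and 5.49 and 5.36 in the Ctcfl arrays (log2 change 0.04, SE 0.09). Both genes lie between the median and the upper quartile of their arrays, and without detection calls such values cannot be separated from background. The same limit applies to Mtf1, Slc30a1 and Slc39a14. It also applies to other genes below that read in this range, such as Osmr, Cp and Bbs2.

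Mtf1, which encodes the zinc sensor itself, read 7.18 and 7.26 in the controls and 7.33 and 7.28 in the Ctcfl arrays. Both Ctcfl values lie above both controls, by a margin smaller than the gap between replicates (log2 change 0.09, SE 0.09). Slc30a1, whose product ZnT1 exports zinc across the plasma membrane, read 6.69 and 6.59 in the controls and 6.46 and 6.56 in the Ctcfl arrays. The groups do not overlap here either, but the log2 change of -0.13 (SE 0.09) is close to the gap of 0.1 between replicates. Slc30a4, whose product ZnT4 loads zinc into vesicles and is mutated in the lethal milk mouse, read 9.42 and 9.43 in the controls and 9.52 and 9.56 in the Ctcfl arrays. Its log2 change of 0.12 (SE 0.08) was the highest of the 10 genes, with both Ctcfl arrays above both controls.

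The 3 importer genes had small differences. Slc39a10 encodes ZIP10, a plasma membrane importer whose gene MTF-1 represses in mouse cells, and it read 8.70 and 8.65 in the controls against 8.60 and 8.52 in the Ctcfl arrays (log2 change -0.12, SE 0.09). Its groups do not overlap. Slc39a6 encodes ZIP6, the closest relative of ZIP10, and read 9.26 and 9.30 in the controls against 9.20 and 9.37 in the Ctcfl arrays (log2 change 0.005, SE 0.10). Here the Ctcfl arrays lie on either side of the controls. Slc39a14 encodes ZIP14, an importer of zinc, iron and manganese, and read 7.29 on both control arrays, 7.29 on one Ctcfl array and 7.07 on the other (log2 change -0.11, SE 0.10).

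Across the 10 genes, 6 had lower and 4 had higher mean values in the Ctcfl arrays, with a median log2 change of -0.11 beside 0 for all named genes. Without Ctcfl replicate 2 the median was -0.0375. Both Ctcfl arrays lay below both controls for 4 of the 10 genes (Mt1, Mt2, Slc30a1 and Slc39a10), as for 20.6% of all genes, and above both for 2 of the 10 (Mtf1 and Slc30a4), as for 20.6% of all genes in that direction. At an adjusted p under 0.05 by limma over all genes, 0 of the 10 were past the threshold, where 0.0451% of all genes were. At an unadjusted p under 0.05 there were 2 of the 10, Mt1 and Mt2, where 10.7% of all genes were. With an intensity trend and robust variances in limma, Mt1 and Mt2 were past the adjusted threshold, as were 2.4% of all genes. Since the same comparison served to choose the genes, these counts are no test of Mt1, Mt2 or the other members, and nothing is read from them.

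**Figure D3:**
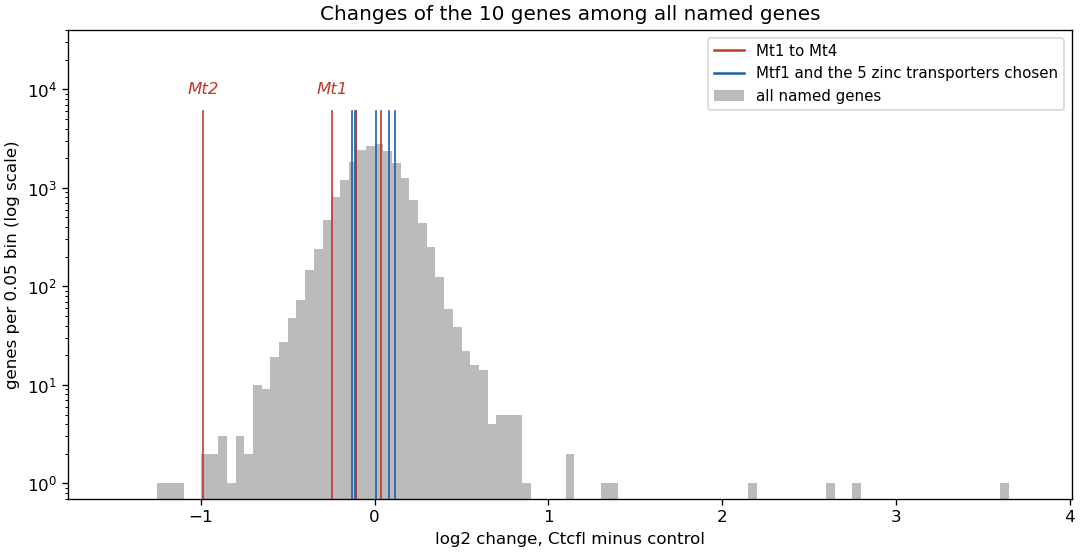
Histogram of the log2 change (Ctcfl minus control, x axis, bins of 0.05) over all 19938 named genes, with the number of genes on a log y axis. Vertical lines mark the 4 metallothioneins (red) and the other 6 genes (blue). Mt2 at -0.98 stands in the sparse lower tail, Mt1 at -0.24 on the lower shoulder, and the other 8 lines lie between -0.13 and 0.12.

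The complete transporter families were set beside the 5 transporters above, since the other 19 transporters had not been singled out. All 10 Slc30 and 14 Slc39 genes had a value. By limma, 0 of the 24 passed at an adjusted p under 0.05 over all genes and 1 had an unadjusted p under 0.05, against 10.7% of all genes. Of the 19 transporters outside the chosen genes, 13 had higher and 6 lower mean values in the Ctcfl arrays, with a median log2 change of 0.06 beside 0 for all genes. This lean rested on a single array: without Ctcfl replicate 1 the split was 9 higher and 10 lower. Their changes ranged from -0.17 to 0.31.

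Among the exporters, Slc30a3, which encodes the zinc transporter of synaptic vesicles, read 5.30 and 5.59 in the controls and 5.78 and 5.73 in the Ctcfl arrays. It had the highest change of both families (0.31, SE 0.12) and an adjusted p of 0.441 by limma, so it did not pass. Its controls were themselves far apart (SD 0.21, n = 2). Like Mt4, it lies between the median and the upper quartile of the arrays and cannot be separated from background. Slc30a8, known from insulin granules, had 0.11 (SE 0.10) at values of 4.13 to 4.34, near the lower quartile of the arrays. Slc30a5, Slc30a6 and Slc30a7, which supply zinc to the secretory pathway, had log2 changes of -0.06, 0.01 and -0.05. Slc30a9 had -0.12, and Slc30a2 and the manganese transporter gene Slc30a10 had -0.04 each. Both Slc30a2 and Slc30a10 read below the median of each array. In the whole Slc30 family 4 genes had higher and 6 lower values, with a median of -0.04.

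Among the importers, Slc39a7, whose product ZIP7 releases zinc from the endoplasmic reticulum, read 9.21 and 9.15 in the controls and 9.01 and 9.02 in the Ctcfl arrays. It was the only one of the 11 importers outside the chosen genes with a lower mean, and it did not pass (log2 change -0.17, SE 0.08, adjusted p = 0.529 by limma). Slc39a5 and Slc39a12 had the most positive changes, 0.18 (SE 0.08) and 0.18 (SE 0.09), and both read below 5.3 on all arrays. Slc39a4, the intestinal zinc uptake gene, had 0.13, and Slc39a1, Slc39a2, Slc39a3, Slc39a8, Slc39a9, Slc39a11 and Slc39a13 had changes from 0.02 to 0.11. Of these, Slc39a2 and Slc39a4 read below the median of each array. A second, dimmer probe set of Slc39a1 gave 0.07, near the 0.09 of the brightest. In the whole Slc39 family 11 genes had higher and 3 lower values, but without Ctcfl replicate 1 the split was 7 to 7.

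**Figure D4:**
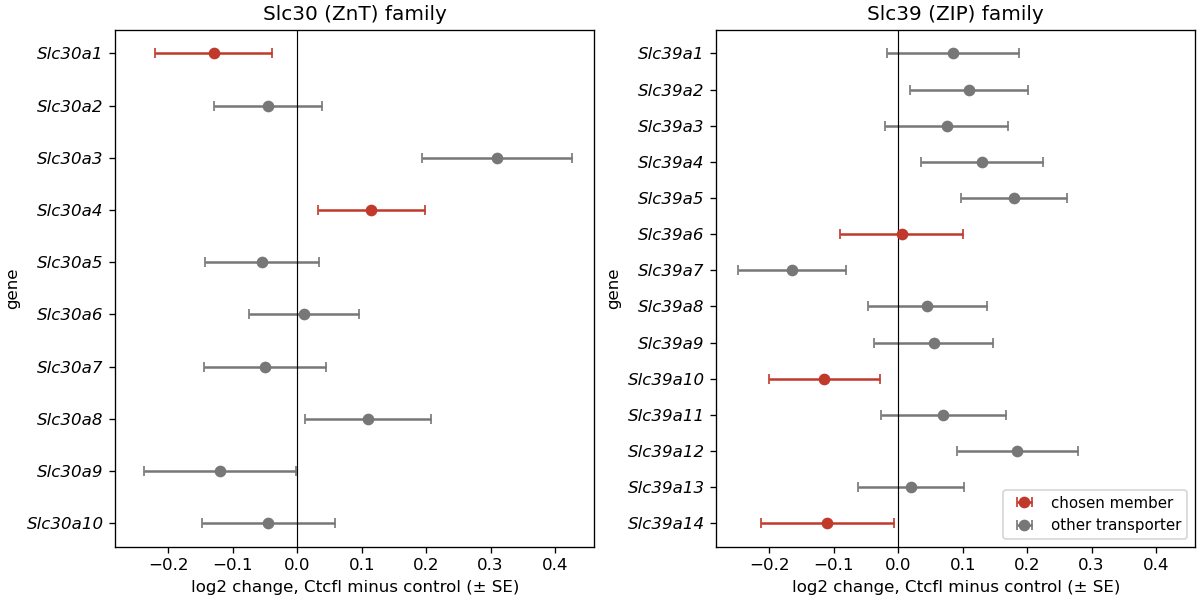
Log2 change (Ctcfl minus control, x axis) of the 10 Slc30 and 14 Slc39 genes, with bars for the standard error of the limma fit. Red points are the 5 chosen transporters and grey points the other 19. The changes lie between -0.17 and 0.31, with Slc30a3 the farthest to the right and Slc39a7 the farthest to the left.

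Around the metallothionein cluster, the 5 nearest measured genes on each side did not pass either (0 of 10 by limma at an adjusted p under 0.05, and 1 at an unadjusted p under 0.05, where 10.7% of all genes were). Next to Mt1 lies Nup93, a nuclear pore gene, with values of 8.93 and 8.92 in the controls and 9.01 and 9.03 in the Ctcfl arrays (log2 change 0.10, SE 0.08). Next to Mt4 lies Bbs2, a gene of the complex mutated in Bardet-Biedl syndrome, with 6.83 and 6.68 in the controls and 6.37 and 6.65 in the Ctcfl arrays (log2 change -0.24, SE 0.12, adjusted p = 0.524 by limma). Herpud1, an endoplasmic reticulum stress gene farther along the chromosome, read 8.61 and 8.54 in the controls and 8.25 and 8.06 in the Ctcfl arrays (log2 change -0.42, SE 0.10, adjusted p = 0.302 by limma). The remaining neighbours had changes from -0.18 to 0.12. Between Bbs2 and Nup93, Mt2 had the lowest log2 change of the 4 metallothioneins, and those of Mt3 and Mt4 were within their standard errors of 0.

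**Figure D5:**
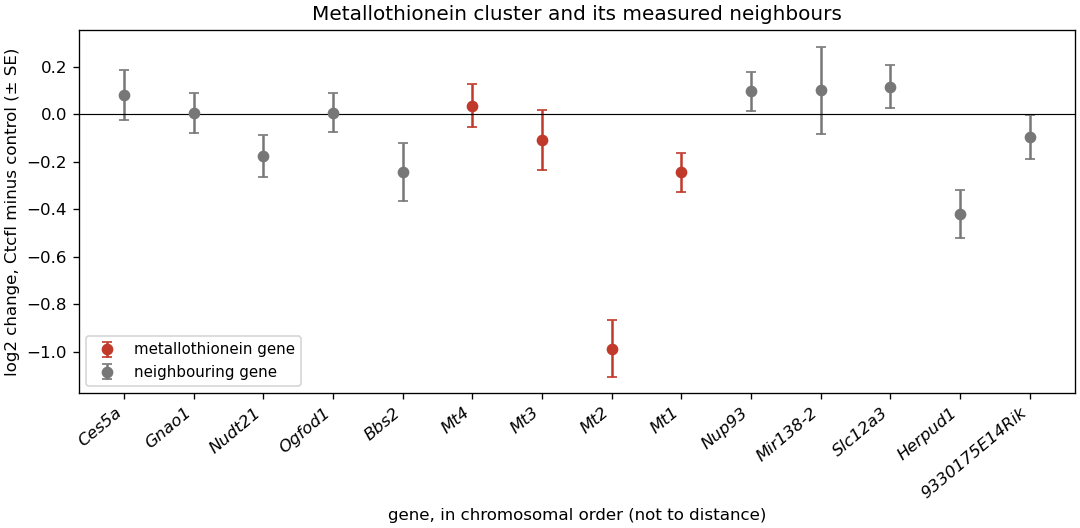
Log2 change (Ctcfl minus control, y axis, bars show the standard error of the limma fit) of the 4 metallothionein genes (red) and the 5 nearest measured genes on each side (grey), in chromosomal order without distances. Mt2 lies at -0.98, Herpud1 at -0.42, and the other genes between -0.24 and 0.12.

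Of 5 other measured genes reported to respond to MTF-1 (Selenow, Gclc, Pgf, Ndrg1 and Csrp1), 4 had higher values in the Ctcfl arrays and 1 lower, with a median of 0.18. Of all genes, 49.9% had higher and 48.6% lower values. By limma 0 passed at an adjusted p under 0.05 and 2 had an unadjusted p under 0.05, both with higher values, beside 10.7% of all genes in either direction. The groups did not overlap for 3 higher genes and 1 lower gene of the 5, where 20.6% of all genes did so in each direction. So short a list was not tested as a group. Csrp1, a LIM domain protein gene, read 8.03 and 8.05 in the controls and 8.63 and 8.57 in the Ctcfl arrays (log2 change 0.56, SE 0.08, adjusted p = 0.152 by limma). Ndrg1, a stress-response gene, was 0.23 higher on the log2 scale (SE 0.09, adjusted p = 0.442 by limma).

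Metallothionein genes also respond to steroid, cytokine and oxidative signals, and lists of such genes were read from the same fit. Some genes are on more than 1 list, so the counts of different lists are not independent. Lcn2 and Cebpd are on the glucocorticoid and interleukin 6 lists, and Gclc is on the MTF-1 and oxidative stress lists. Of 12 glucocorticoid-responsive genes besides Mt1 and Mt2, 4 had higher and 8 lower values, with a median of -0.04. By limma 0 passed and 1 had an unadjusted p under 0.05, near the 10.7% of all genes. This was Zbtb16 (log2 change 0.21, SE 0.09), which read below the median of all probe sets on each array. Both Ctcfl arrays lay below both controls for 6 of the 12 genes and above both for 3, where 20.6% of all genes did in each direction. These counts were not tested. The kinase gene Sgk1 had -0.21 (SE 0.09, adjusted p = 0.477 by limma). The classical targets Fkbp5 and Tsc22d3 had -0.06 and -0.19, and the receptor gene Nr3c1 had -0.01.

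Of 15 genes of the interleukin 6 and STAT3 response besides the members, 7 had higher and 8 lower values, with a median of -0.01. By limma 0 passed and 2 had an unadjusted p under 0.05, in opposite directions, near the 10.7% of all genes. The groups did not overlap for 3 lower genes and 1 higher gene of the 15, where 20.6% of all genes did so in each direction. Osmr, the oncostatin M receptor gene, read 7.01 and 7.12 in the controls and 6.22 and 6.36 in the Ctcfl arrays (log2 change -0.78, SE 0.10, adjusted p = 0.115 by limma). Pim1, a kinase gene induced by STAT factors, read 7.81 and 7.85 in the controls and 8.29 and 8.26 in the Ctcfl arrays (log2 change 0.45, SE 0.08, adjusted p = 0.224 by limma).

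Of 12 measured genes of the oxidative and metal stress list, 8 had lower and 4 higher values, with a median of -0.09. By limma 0 passed and 3 had an unadjusted p under 0.05, all with lower values, beside 10.7% of all genes in either direction. Both Ctcfl arrays lay below both controls for 7 of the 12 and above both for 1, where 20.6% of all genes did in each direction. The list was not tested as a group. Slc7a11, the cystine importer gene, read 4.81 and 4.92 in the controls and 4.45 and 4.36 in the Ctcfl arrays (log2 change -0.46, SE 0.09, adjusted p = 0.248 by limma). These values lie below the median of each array, at the level of markers of other cell types, and cannot be separated from background. Nqo1, a quinone reductase gene, had -0.28 (SE 0.09) and Hmox1, the heme oxygenase gene that cadmium and other metals induce, had -0.28 (SE 0.10), each with an adjusted p of 0.412 by limma.

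Genes with a profile most like that of Mt2 were found by the root mean square difference between profiles centred on each gene's mean, over the 4 arrays. Predicted genes, clones, and olfactory, vomeronasal and microRNA genes were left out of this search. The nearest 5 were Cytip (0.0936), Gcnt4 (0.106), Igfbp4 (0.108), P2rx3 (0.116) and Cck (0.12), all in log2 units. Their log2 changes ran from -0.99 (Gcnt4) to -0.86 (P2rx3). For Mt1 the nearest were Magee2, Eci1, Gss, Apex1 and Ifitm2, at distances from 0.00433 to 0.0109. Magee2 read below the median of each array, and so did Cytip on the Ctcfl arrays. Such values cannot be separated from background. Only 4 arrays enter this measure of distance, and no test was made of it.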

How the data were processed

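Messenger RNA of 2 control and 2 Ctcfl samples was measured on Affymetrix arrays. The values deposited are on a log2 scale. The authors computed them by RMA in Expression Console, per the labels. Its version and settings are not given in the sources used here. RMA corrects background, quantile-normalises arrays and summarises probes per probe set. No detection calls were used. Of 35511 probe sets with a value, 21789 have 1 gene symbol in the platform annotation, 1621 have several and 12101 are not listed there. The brightest probe set stood for each gene, which gave 19938 genes.

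The comparison of both groups used lmFit and eBayes of limma 3.58.1 (R 4.3.3, two-sided, Benjamini-Hochberg adjustment over all genes, threshold 0.05), checked on simulated data. Standard errors are moderated. Genes named are the chosen 10, both transporter families, the 2 members of each other list with the smallest p (none passed), the neighbours of the cluster and the 5 nearest profiles. Other list genes given with values were added after their values were seen. The members and lists were chosen with earlier results of these data known. Alternatives were other scalings, a filter on dim genes, averaged probe sets, another variance model, a replicate block and each array left out. Figures were drawn with matplotlib 3.10.9. Promoters came from RefSeq (GRCm38.p6).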

Additional observations from a re-analysis of the deposited data

How the results depend on the processing

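The median change of the 10 genes stayed negative under every alternative run, and it ranged from -0.118 to -0.0375 when single arrays were left out. These genes were chosen with this comparison known, so the sign of their median is no independent result. The change of Mt2 ranged from -1.10 to -0.87 and that of Mt1 from -0.28 to -0.23 over 10 alternatives, without a change of sign. For most alternatives this sign was fixed in advance. The groups of Mt1 and Mt2 do not overlap, so leaving out an array cannot reverse it. The filter on dim genes, averaged probe sets and replicate blocks leave both changes, and the median of the 10 genes, as they are. Mt3, Mt4 and Slc39a6 changed sign under at least 1 alternative, and Slc39a14 was at 0 without Ctcfl replicate 2. No transporter passed the adjusted threshold in limma under any alternative that kept all arrays, with 0 to 2 at an unadjusted p under 0.05. Under the replicate blocks no gene of any kind passed, so those settings could not have shown a transporter. Median centring of the arrays moved the median of all genes by -0.03 and the transporter split from 15 higher and 9 lower to 12 and 12.

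The number of genes past the threshold by limma over all genes was 9. It was 20 without the dimmest 33.3% of genes, which leaves fewer genes to adjust over and also refits the prior variance. It was 479 under an intensity trend with robust variances (the cause of neither rise was tested). It was 0 when any single array was left out (1329 to 1663 at an unadjusted p under 0.05), where fewer samples enter the fit. With the replicate number as a block, it was 0 (1468 unadjusted). The differences between replicates 1 and 2 had a correlation of -0.102 between the groups over genes, and a crossed pairing, chosen after seeing the data, also gave 0 (2105 unadjusted). The 2 numbers are not known to mark shared cultures. Only 4 arrays limit the precision.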

Other observations

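Handling of other metals was read from the same fit. The copper and iron lists share Steap3, and the iron list also holds Slc39a8 of the zinc importer family. Of 13 copper genes besides Mtf1, 9 had higher and 4 lower values in the Ctcfl arrays, with a median log2 change of 0.01. The groups did not overlap for 5 higher and 2 lower genes, where 20.6% of all genes did so in each direction. By limma 0 passed at an adjusted p under 0.05 and 1 had an unadjusted p under 0.05, no more than the 10.7% of all genes. This was Slc31a2, which encodes the copper transporter CTR2 and read 7.92 and 7.88 in the controls and 8.21 and 8.27 in the Ctcfl arrays (log2 change 0.34, SE 0.08, adjusted p = 0.316 by limma). Ccs, the copper chaperone gene of superoxide dismutase, had -0.18 (SE 0.10), and the copper importer gene Slc31a1 had 0.03.

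Of 14 iron genes besides Slc39a14, 9 had lower and 5 higher values, with a median of -0.05. By limma 0 passed and 2 had an unadjusted p under 0.05, both with lower values, near the 10.7% of all genes. The groups did not overlap for 6 lower and 3 higher genes of the 14, where 20.6% of all genes did so in each direction. These counts were not tested. Slc40a1, the gene of the iron exporter ferroportin, read 4.78 and 4.41 in the controls and 4.04 and 4.17 in the Ctcfl arrays (log2 change -0.49, SE 0.14, adjusted p = 0.354 by limma). These values lie below the median of each array and cannot be separated from background. Cp, which encodes the copper-bound ferroxidase ceruloplasmin, read 6.38 and 6.54 in the controls and 6.18 and 6.01 in the Ctcfl arrays (log2 change -0.36, SE 0.11, adjusted p = 0.361 by limma). The transferrin receptor gene Tfrc had 0.005 and the ferritin genes Fth1 and Ftl1 had -0.02 and -0.01.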
